A study of Polistes metricus with 16 samples.

Results

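The laboratory feeding experiment on the paper wasp Polistes metricus compared the heads of larvae from nests fed ad libitum with the heads of larvae from nests on restricted food. It holds 8 of the 16 libraries of the series, chosen by their labels alone. All 8 larvae were females in instar 5, the last larval stage, and each library was made from the head of 1 larva. The 4 ad libitum larvae (codes O1, LL1, EE1 and CC1, replicates 1 to 4) came from nests offered a worm as protein every 1 day. The 4 restricted larvae (W1, M1, L1 and FF1, replicates 1 to 4) came from nests offered one every 3 days. Both groups came from North Carolina nests kept in a laboratory in 2009, and no larva carried a transgene or other treatment. The feeding was of the nest, so the amount eaten by a given larva is not known from the labels. The labels also do not say which larvae shared a nest, so the p-values rest on the spread among single larvae, which may share a nest. The 8 field larvae of the series, 4 worker-reared and 4 foundress-reared, were collected in Iowa in 2010 and are used here in the filter on low counts, for the estimate of spread and as a further set of levels.

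In Polistes the queens and workers look much alike, and a larva's path depends largely on how it is fed. Adults chew prey and hand it to the larvae, and larvae store amino acids in hexamerins, which are blood storage proteins made by the fat body. In social insects food supply acts on growth through insulin and TOR signalling and on development through juvenile hormone. The deposited table pairs no transcript with a gene name, so none of these genes could be read, and no marker of muscle, fat body, silk gland or nervous tissue could be used to check the label of the tissue. Transcripts are therefore given by identifier, with no role. In whole heads, a lower level from fewer cells of a type cannot be told apart from less RNA in each cell.

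Library totals ran from 29048017 to 33471057 counts in ad libitum larvae and from 29487724 to 33561419 counts in restricted larvae. Levels are given as CPM, counts per 1000000 of a library total scaled with TMM factors. The 10 most abundant transcripts took 8.68% to 28.1% of the counts of an ad libitum larva and 7.58% to 18.7% of the counts of a restricted larva. The number of transcripts with a count was 57942 ± 1207 in ad libitum and 58968 ± 2057 in restricted larvae (SD, n = 4 each). None of these 3 measures passed a test between the groups (two-sided exact permutation tests, p = 0.514 to 0.743, with 0.0286 the smallest p that 4 against 4 allow). Larva FF1 stood apart from the rest of its group in 1 of them, with 62026 detected transcripts against 57586 to 58253 in W1, M1 and L1. Its 10 most abundant transcripts took 7.58% of its counts, the lowest share of the restricted larvae, against 11.5% to 18.7% in the other 3. The results below are given with all 8 larvae and then without FF1, an omission chosen with earlier results of these data known.

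With all 8 larvae, no transcript passed the test between ad libitum and restricted larvae. Of 36337 transcripts tested with edgeR's quasi-likelihood test, 0 had an adjusted p under 0.05, which is 0% of those tested. An unadjusted p under 0.05 was reached by 4949 transcripts (13.6%), of which 2186 had a higher fitted level with ad libitum food and 2763 a lower one. limma voom also called 0, and DESeq2 called 466, of which 144 were higher and 322 lower with ad libitum food. Fitted to the 8 laboratory libraries alone, edgeR called 0 of 33397, with 3971 at an unadjusted p under 0.05.

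The transcripts with the smallest p formed a set of 173 that shared an adjusted p of 0.178. In 37 of them the fitted level was higher with ad libitum food, by a median of 1.75-fold, and in 136 it was lower, by a median of 2.73-fold. The values of 128 of the 173 did not overlap between the 2 groups, which was so for 5.29% of all transcripts tested. The 173 were chosen by the p of the same contrast, so nothing is read from that count. Those named next are the 4 in each direction with the smallest p among the non-overlapping ones, and none of them passed the edgeR test. All 8 were called by DESeq2 (adjusted p of 0.000192 to 0.0093) and by limma voom with sample quality weights (adjusted p of 0.000616 to 0.0014). None was called by limma voom without weights (adjusted p = 0.248) or by edgeR in the laboratory libraries alone (adjusted p = 0.391). With 1 surrogate variable, edgeR called none of them either (adjusted p of 0.0564 to 0.0958). The 8 were chosen by their p in the same libraries, so these calls are no separate evidence.

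PmetTSAr1.1-008414 measured 1.85, 1.64, 2.15 and 1.83 CPM in ad libitum larvae O1, LL1, EE1 and CC1, against 0.658, 0.702, 0.773 and 1.04 CPM in restricted larvae W1, M1, L1 and FF1. The groups did not overlap, and FF1 was the restricted larva nearest to the ad libitum larvae. The fitted log2 difference, ad libitum over restricted, was 1.22 ± 0.223 SE, with an edgeR adjusted p of 0.178. PmetTSAr1.1-012473 measured 11.4, 13.7, 14.3 and 16.9 CPM in the ad libitum larvae, against 6.5, 6.17, 7.76 and 9.25 CPM in the restricted larvae (fitted log2 difference 0.92 ± 0.175 SE). PmetTSAr1.1-025202 measured 12.1, 15, 14.9 and 14.8 CPM in ad libitum larvae, against 6.72, 5.29, 8 and 10 CPM in restricted larvae (fitted log2 difference 0.92 ± 0.183 SE). PmetTSAr1.1-003174 ranged from 7.56 to 12.6 CPM in ad libitum larvae and from 3.07 to 5.87 CPM in restricted larvae (fitted log2 difference 1.16 ± 0.232 SE). In each of these 4 transcripts FF1 had the highest level of the restricted larvae.

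In the other direction, PmetTSAr1.1-040445 measured 0.33, 0.215, 0.253 and 0.339 CPM in the ad libitum larvae, against 1.75, 2.18, 1.55 and 0.725 CPM in restricted larvae W1, M1, L1 and FF1. It had the smallest p of all transcripts tested (fitted log2 difference -2.42 ± 0.357 SE, edgeR adjusted p = 0.178). PmetTSAr1.1-009276 measured 4.16, 3.49, 2.61 and 3.91 CPM in ad libitum larvae, against 9.46, 10.5, 7.55 and 5.85 CPM in restricted larvae (fitted log2 difference -1.23 ± 0.202 SE). Here too FF1 was the restricted larva nearest to the ad libitum larvae. PmetTSAr1.1-007756 measured 3.56, 3.41, 3.88 and 3.6 CPM in ad libitum larvae, a narrow range, against 13.3, 10.2, 9.84 and 6.59 CPM in restricted larvae (fitted log2 difference -1.46 ± 0.252 SE). PmetTSAr1.1-037349 was the exception among the 8, with FF1 at the far end of its own group. It measured 0.132, 0.215, 0.211 and 0.13 CPM in ad libitum larvae, against 0.438, 0.591, 0.654 and 0.68 CPM in restricted larvae (fitted log2 difference -1.77 ± 0.303 SE).

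**Figure D1:**
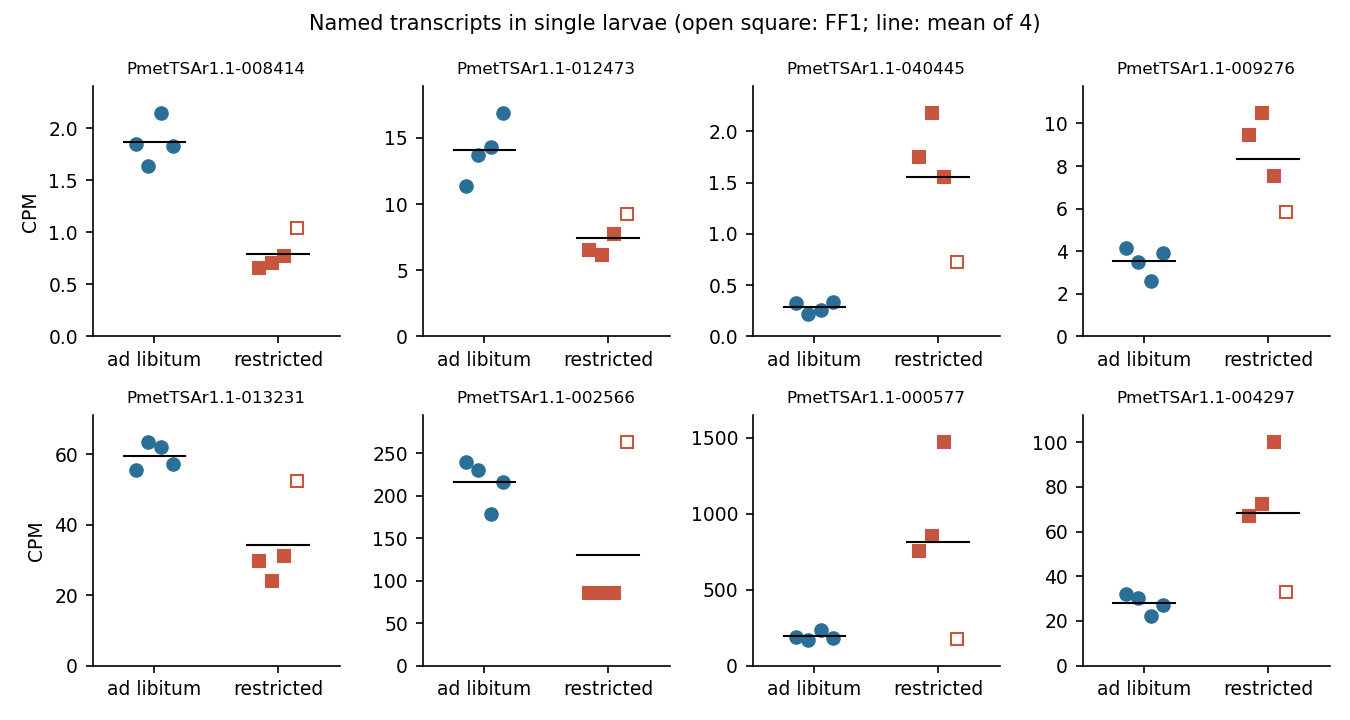
CPM (linear axis from 0) of 8 named transcripts in single ad libitum larvae (circles, left) and restricted larvae (squares, right), with a line at the mean of 4; the open square is FF1. In the upper row, named with all 8 larvae, FF1 lies outside the ad libitum range and is the restricted larva nearest to it. In the lower row, named without FF1, FF1 lies at or near the ad libitum level. An example is PmetTSAr1.1-002566, with 263 CPM in FF1 and 85 to 86 CPM in W1, M1 and L1.

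Read directly from the values, 947 of 36337 transcripts were higher in every ad libitum larva than in any restricted larva (2.61%), and 974 were lower (2.68%), which together is 5.29%. By a rule of 0 counts in every larva of one group and a minimum count in every larva of the other, no transcript was found. None of 73647 transcripts with a count had at least 10 counts in every ad libitum larva and 0 in every restricted larva (0%), and none had the reverse (0%). A minimum of 5 or of 20 counts gave 0 as well. Without FF1, a minimum of 5 counts gave 1 transcript in each direction.

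The 4 most abundant transcripts of the laboratory larvae overlapped between the groups, and 3 of them varied 39.4-fold or more among the 8 larvae. PmetTSAr1.1-000002 measured 34400, 18900, 135000 and 13000 CPM in ad libitum larvae O1, LL1, EE1 and CC1, against 37400, 62500, 3450 and 3180 CPM in restricted larvae W1, M1, L1 and FF1 (fitted log2 difference 0.92 ± 1.24 SE, edgeR adjusted p = 0.758). EE1 held the highest level and FF1 the lowest, a 42.6-fold range in which the groups overlapped. PmetTSAr1.1-000005 followed the same order of larvae, from 5130 to 54500 CPM in ad libitum and from 1380 to 24100 CPM in restricted larvae (fitted log2 difference 0.97 ± 1.23 SE, edgeR adjusted p = 0.741). The log2 ratio of these 2 transcripts had an SD of 0.07 over the 16 larvae, so they may be counted from shared reads. PmetTSAr1.1-014849 spanned 14.2 CPM (CC1) to 38800 CPM (EE1) among ad libitum larvae and 78.6 CPM (FF1) to 31700 CPM (M1) among restricted larvae, a 2730-fold range. Its fitted log2 difference was 0.12 ± 1.82 SE. PmetTSAr1.1-014844 was steadier, at 9460 to 24800 CPM in ad libitum and 7550 to 14400 CPM in restricted larvae (fitted log2 difference 0.54 ± 0.321 SE, edgeR adjusted p = 0.468).

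The first principal component did not divide the 8 larvae by feeding, while the second separated them in part. On the first component of the 500 most variable transcripts, which held 66.2% of their variance, ad libitum larvae O1, LL1, EE1 and CC1 scored -4.59, -38.1, 47.1 and -49.1, and restricted larvae W1, M1, L1 and FF1 scored 39.5, 44.6, 25.1 and -64.6. EE1 thus lay with W1, M1 and L1, and FF1 at the far end of the side that held the other 3 ad libitum larvae. The TMM factors fell as these scores rose, from 1.32 in FF1 to 0.711 in EE1, with O1 and L1 both at 1.05. The part of the make-up of the libraries in this component was not tested. Over all 36337 transcripts the same larvae fell on each side of 0, with EE1 at 64.3 and FF1 at -118. On the second component of all 36337 transcripts, with 16% of the variance, O1, LL1, EE1 and CC1 scored 22.3, 23.5, 109 and -20.5, and W1, M1, L1 and FF1 scored -24.8, -21.6, -57.7 and -30.2. The groups did not overlap there, though CC1 lay beside M1. On the second component of the 500 transcripts (16.6%), CC1, at -17.6, lay among the restricted larvae, which scored -34 to -4.28, and the other ad libitum larvae scored 17.4 to 30.4. The Spearman correlation of log2 CPM over all 36337 transcripts was 0.89 to 0.901 between FF1 and the other restricted larvae. Between FF1 and the ad libitum larvae it was 0.894 to 0.971, with CC1 the closest. EE1 correlated on average at 0.925 with its own group and at 0.929 with the restricted larvae. Each of the other 6 larvae had a higher mean correlation with its own group than with the other group. These correlations are across transcripts, which are not independent.

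**Figure D2:**
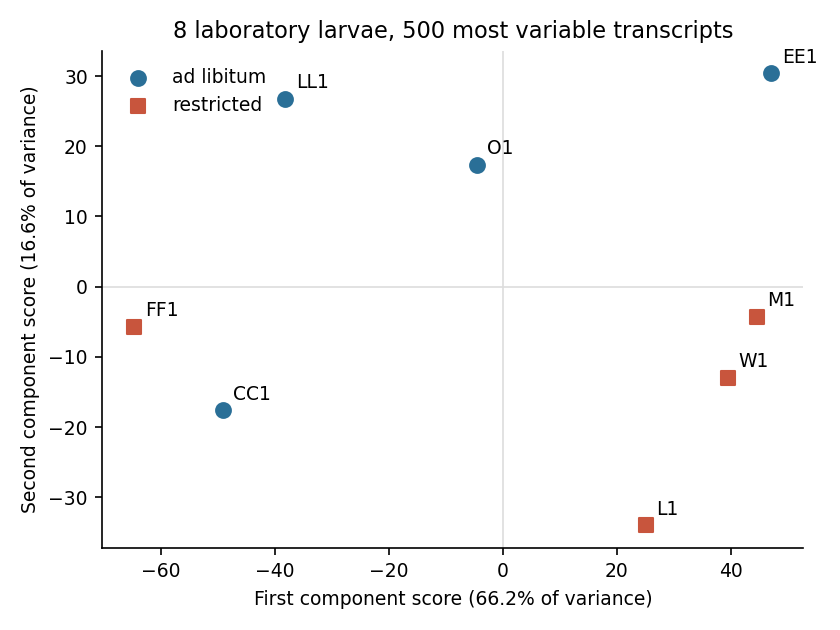
Scores of the 8 laboratory larvae on the first and second principal components of log2 CPM of the 500 most variable transcripts (66.2% and 16.6% of their variance); circles are ad libitum and squares restricted larvae. The groups interleave along the first component, with ad libitum larva EE1 at 47.1 among the restricted larvae and restricted larva FF1 at -64.6 beyond the ad libitum larvae.

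For the typical transcript, the SD of single larvae within a group was larger than the difference of the group means. A mean of 4 larvae varies less than a single larva, so this comparison is no test of a group difference. The median SD of log2 CPM was 0.344 among the 4 ad libitum larvae and 0.454 among the 4 restricted larvae, and the median absolute difference of the group means was 0.307. Without FF1 the SD among the restricted larvae was 0.328, while without W1, M1 or L1 it was 0.468, 0.47 and 0.408. Among ad libitum larvae the omission of EE1 gave 0.223, against 0.341 to 0.356 for the omission of any other. The median difference of the group means was 0.415 without FF1, and the share of transcripts whose means differed by more than 1 on the log2 scale was 15.9% without FF1 and 7.64% with it.

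The count of calls turned on FF1. With O1, LL1, EE1, CC1, W1, M1 or L1 left out in turn, edgeR called 0 transcripts each time, and 2978 to 5677 had an unadjusted p under 0.05. Without FF1, 3016 of 37128 transcripts (8.12%) were called and 9885 (26.6%) had an unadjusted p under 0.05. The transcripts without overlap between the groups numbered 9419 (25.9%) without FF1, against 1921 with all 8 larvae and 2298 to 4028 when any other larva was left out. The higher end of that range was the omission of EE1. A smaller set of larvae overlaps less by itself, which holds for all 8 omissions alike. limma voom with sample quality weights keeps all 8 larvae but gives less weight to those far from their group, and it called 10341 transcripts, 5243 higher and 5098 lower with ad libitum food. The weights, estimated from the same values, were 2.35, 2.2, 0.419 and 1.92 for O1, LL1, EE1 and CC1, and 2.07, 1.59, 0.436 and 0.222 for W1, M1, L1 and FF1.

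**Figure D3:**
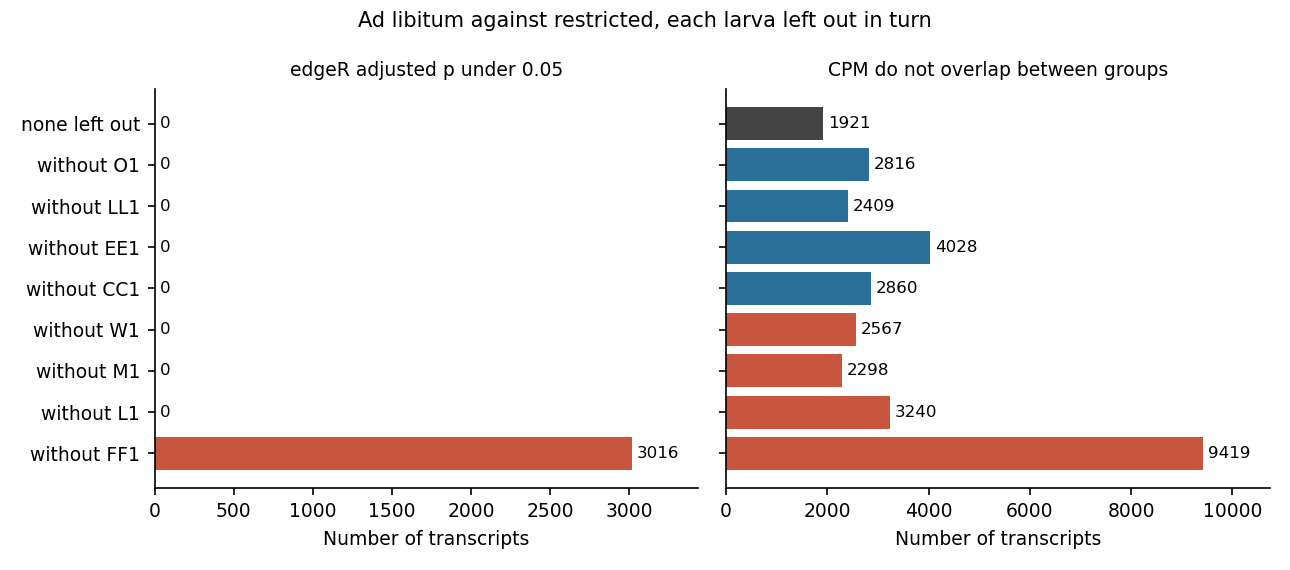
Number of transcripts called by edgeR at an adjusted p under 0.05 (left) and number whose CPM do not overlap between ad libitum and restricted larvae (right), with no larva left out (dark) and with each ad libitum (blue) or restricted (red) larva left out in turn. Calls appear in 1 of the 9 bars on the left, 3016 without FF1, and the bar without FF1 on the right reaches 9419 against 4028 for the next.

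Each larva was also read in transcripts that had been ranked without it. For every larva, the fit that left it out gave the 200 higher and the 200 lower transcripts of smallest p. The share in which that larva lay nearer to the mean of its own group was 80% in O1, 89.2% in LL1, 64.5% in EE1 and 77.2% in CC1, and 87% in W1, 86.5% in M1, 65.2% in L1 and 1.75% in FF1. The low value of FF1 was alike in both directions, 1.5% of the 200 higher and 2% of the 200 lower with ad libitum food. The fits behind these shares differ. Those without 1 of the other 7 larvae kept FF1 and called 0 transcripts, with a smallest edgeR adjusted p of 0.264 to 0.481. The fit without FF1 called 3016, with a smallest edgeR adjusted p of 0.00225. The share of FF1 is thus read in transcripts ranked without its own values and those of the others in transcripts ranked with them. FF1 was left out here with earlier results of these data known, so the calls without it describe the other 7 larvae. A wrong label, a different state of the larva and a difference of its library were not tested.

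Without FF1, 1656 transcripts were called higher in ad libitum larvae (4.46% of 37128) and 1360 were called lower (3.66%). Of these, 1651 of the higher and 1323 of the lower were also tested with all 8 larvae. The rest passed the filter on low counts only in the fit without FF1, so their calls are not read as a test. The counts and medians that follow include them. The median fitted difference was 2.02-fold for those called higher and 2.31-fold for those called lower, and 626 of the 3016 had an adjusted p under 0.01. More than 2-fold differences were found in 848 of the higher and 859 of the lower transcripts, and more than 4-fold differences in 174 and 225. Of the 173 transcripts that had shared the smallest adjusted p with all 8 larvae, all 173 were among the calls without FF1, though the 2 fits share 7 of the larvae. The higher transcripts together took 10.1%, 12.2%, 5.23% and 12.6% of the counts of O1, LL1, EE1 and CC1, against 4.35%, 3.63% and 4.96% of the counts of W1, M1 and L1. EE1 was thus closer to W1, M1 and L1 in this share than to the other ad libitum larvae. On scaled levels (log2 CPM), EE1 lay nearer to the ad libitum mean, which includes EE1, in 1304 of the 1656 (78.7%). In FF1 the higher transcripts took 14.3% of the counts, the highest share of the 8 laboratory larvae. These shares are of unscaled counts, of which the 10 most abundant transcripts took 28.1% in EE1 and 7.58% in FF1. The part of this in the shares was not tested. The lower transcripts took 3.8% to 4.7% of the counts of an ad libitum larva, against 8.98%, 10.5% and 15.7% in W1, M1 and L1, and 4.79% in FF1.

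**Figure D4:**
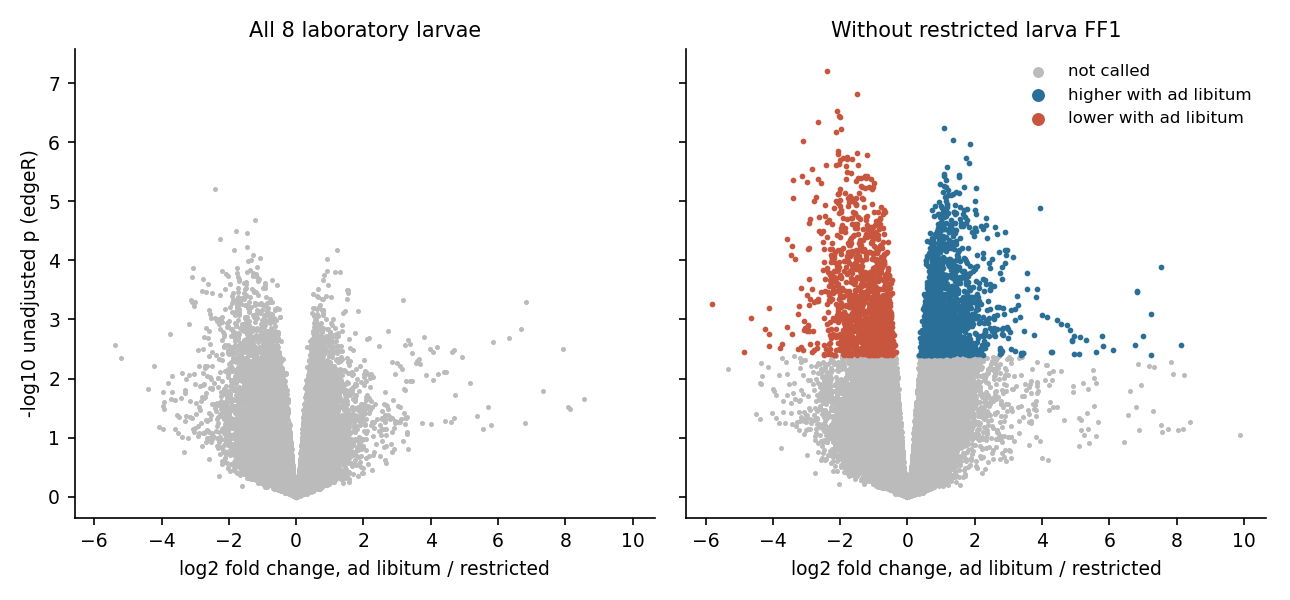
Unadjusted edgeR p (as -log10) against log2 fold change of ad libitum over restricted larvae, for the 36337 transcripts tested with all 8 larvae; left, all 8 larvae, right, the same transcripts without FF1. No point is called on the left; on the right, blue points are called higher and red points called lower with ad libitum food, 2974 of the 3016 calls being among the transcripts shown.

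The calls of smallest p at levels of at least 20 CPM showed how sharply W1, M1 and L1 could differ from the ad libitum larvae. PmetTSAr1.1-002566 measured 240, 230, 178 and 216 CPM in ad libitum larvae O1, LL1, EE1 and CC1, against 85, 86 and 85.1 CPM in restricted larvae W1, M1 and L1. The 3 restricted larvae were within 1 CPM of each other, and FF1 measured 263 CPM, above every ad libitum larva. Without FF1 the fitted log2 difference was 1.34 ± 0.162 SE (edgeR adjusted p = 0.00314), and with all 8 larvae it was 0.73 ± 0.314 SE (edgeR adjusted p = 0.334). PmetTSAr1.1-002083 measured 82.1, 91.4, 49.4 and 75.2 CPM in the ad libitum larvae, against 22.8, 17.7 and 20.7 CPM in W1, M1 and L1 and 80.9 CPM in FF1. Without FF1 it was 3.66-fold higher in ad libitum larvae (fitted log2 difference 1.87 ± 0.23 SE, edgeR adjusted p = 0.00314). With all 8 larvae its edgeR adjusted p was 0.286. PmetTSAr1.1-013231 measured 55.7, 63.5, 62.1 and 57.3 CPM in ad libitum larvae, against 29.8, 24 and 31.1 CPM in W1, M1 and L1 and 52.4 CPM in FF1. Without FF1 it was 2.11-fold higher in ad libitum larvae (edgeR adjusted p = 0.00269).

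Among the abundant transcripts called lower in ad libitum larvae, PmetTSAr1.1-000577 measured 188, 166, 237 and 182 CPM in O1, LL1, EE1 and CC1. Its levels in W1, M1 and L1 were 757, 854 and 1470 CPM. FF1 measured 177 CPM, inside the ad libitum range. The transcript had the smallest adjusted p without FF1 (fitted log2 difference -2.40 ± 0.233 SE, edgeR adjusted p = 0.00225), and with all 8 larvae its fitted log2 difference was -2.07 ± 0.417 SE. PmetTSAr1.1-016890 measured 26.1, 23.6, 24.1 and 21 CPM in ad libitum larvae, against 74.5, 124 and 105 CPM in W1, M1 and L1 and 18.7 CPM in FF1 (fitted log2 difference -2.09 ± 0.23 SE without FF1, edgeR adjusted p = 0.00269). PmetTSAr1.1-004297 measured 32, 30.4, 22.2 and 27.3 CPM in ad libitum larvae, against 67, 72.4 and 100 CPM in W1, M1 and L1 and 33 CPM in FF1. It was 2.85-fold lower with ad libitum food without FF1 (edgeR adjusted p = 0.00269). In none of these 3 did FF1 lie with its own group.

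The largest fitted differences without FF1, among transcripts with a mean of at least 1 CPM over the 7 larvae, were of transcripts near 0 in one group. PmetTSAr1.1-003933 measured 22.8, 52.6, 0.885 and 40.3 CPM in O1, LL1, EE1 and CC1, against 0.0365, 0.111 and 0.149 CPM in W1, M1 and L1 and 45.6 CPM in FF1. EE1 was far below the other ad libitum larvae. The edgeR adjusted p was 0.0406 without FF1 and 0.755 with it, and in 8 of 14 other settings without FF1 the call was lost. PmetTSAr1.1-015204 measured 38.1, 73.7, 9.87 and 42.3 CPM in ad libitum larvae, against 0.402, 0.148 and 0.119 CPM in W1, M1 and L1 and 100 CPM in FF1 (fitted log2 difference 7.53 ± 1.39 SE without FF1, edgeR adjusted p = 0.00879). Its call was lost in 2 of 14 other settings, with limma voom (adjusted p = 0.0949) and also without M1 (edgeR adjusted p = 0.0517), and its fitted log2 difference was 8.24 also without W1. PmetTSAr1.1-007042 measured 7.72, 6.72, 0.295 and 8.27 CPM in ad libitum larvae, against 0.0365, 0.0739 and 0 CPM in W1, M1 and L1 and 8.57 CPM in FF1 (edgeR adjusted p = 0.0497 without FF1), and its call was lost in 9 of 13 other settings that gave an adjusted p. In all 3, EE1 was the lowest ad libitum larva.

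In the opposite direction, PmetTSAr1.1-037783 measured 0, 0.0269, 0.126 and 0 CPM in O1, LL1, EE1 and CC1, against 2.48, 2.85 and 5.95 CPM in W1, M1 and L1 and 0.0227 CPM in FF1. PmetTSAr1.1-010151 measured 0.033, 0, 0.253 and 0.0261 CPM in ad libitum larvae, against 2.34, 3.7 and 7.32 CPM in W1, M1 and L1 and 0.0453 CPM in FF1. Both were near 0 in FF1 and in the ad libitum larvae, and the field larvae had at most 0.196 CPM of PmetTSAr1.1-037783 and 0.129 CPM of PmetTSAr1.1-010151. Both passed the filter on low counts only in the fit without FF1 and only through W1, M1 and L1, where they were high, so they had to differ and their values are a description with no test. PmetTSAr1.1-029730 measured 0.726, 0.107, 1.1 and 0.0521 CPM in ad libitum larvae, against 3.54, 63.1 and 12.6 CPM in W1, M1 and L1 and 0.204 CPM in FF1 (fitted log2 difference -5.80 ± 1.26 SE without FF1, edgeR adjusted p = 0.0175). Its call was lost in 2 of 13 other settings, also without LL1 (edgeR adjusted p = 0.0594) and also without M1, the larva with 63.1 CPM (fitted log2 difference -4.08, edgeR adjusted p = 0.0862). The restricted larvae differed among themselves by more than 10-fold in this transcript.

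In most of the 3016 calls FF1 lay nearer to the ad libitum larvae than to W1, M1 and L1. Over all transcripts tested, too, its mean Spearman correlation was 0.948 with the ad libitum larvae and 0.894 with W1, M1 and L1. The share of all transcripts in which FF1 lay nearer to the ad libitum mean is not given here, so the shares below are not particular to the calls. It lay nearer to the ad libitum mean than to the mean of W1, M1 and L1 in 1595 of the 1656 higher transcripts (96.3%) and in 1233 of the 1360 lower ones (90.7%). It was inside the range of the 4 ad libitum larvae in 1708 of the 3016 (56.6%) and beyond that range, away from W1, M1 and L1, in 746 (24.7%). It lay between the ranges of the 2 groups in 470 (15.6%), and within or beyond the range of W1, M1 and L1 in 95 (3.15%), with 3 transcripts in more than 1 of these classes where the ranges overlapped. On a scale from 0 at the mean of W1, M1 and L1 to 1 at the ad libitum mean, the median position of FF1 was 1.08 for the higher and 1.02 for the lower transcripts. With FF1 in the fit, the median log2 difference of the 2974 calls that could be tested there was 0.733 in the called direction, against 1.08 without it, and 3 of them had the opposite sign.

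FF1 kept to the restricted side in 188 of the 3016 calls (6.23%), 61 of them higher and 127 lower with ad libitum food. The 3 of smallest p in each direction that are not named above are given here, and all had an edgeR adjusted p of 0.178 with all 8 larvae. PmetTSAr1.1-012320 measured 58.1, 81, 112 and 43.4 CPM in O1, LL1, EE1 and CC1, against 19.4, 28.9, 17.6 and 36 CPM in W1, M1, L1 and FF1. PmetTSAr1.1-012310 differed from it by 2.4 CPM at most in any laboratory larva, so the 2 may be counted from shared reads and are reported as uncertain. PmetTSAr1.1-013232 measured 4.82, 6.4, 6.83 and 5.74 CPM in ad libitum larvae, against 3.25, 2.55, 3.84 and 4.06 CPM in restricted larvae (fitted log2 difference 0.89 ± 0.171 SE without FF1, edgeR adjusted p = 0.00884). In each of these 3, FF1 was the restricted larva with the highest level.

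Of those called lower in ad libitum larvae, PmetTSAr1.1-009293 measured 2.94, 3.04, 2.28 and 2.95 CPM in that group. Its levels were 7.96, 8.83, 8.83 and 4.96 CPM in W1, M1, L1 and FF1 (fitted log2 difference -1.60 ± 0.249 SE without FF1, edgeR adjusted p = 0.00423). PmetTSAr1.1-043029 measured 0.462, 0.269, 0.717 and 0.495 CPM in ad libitum larvae, against 2.41, 2.48, 2.97 and 1.31 CPM in the restricted larvae (fitted log2 difference -2.44 ± 0.385 SE without FF1, edgeR adjusted p = 0.00438). PmetTSAr1.1-010987 measured 0.429, 0.296, 0.126 and 0.0782 CPM in ad libitum larvae, against 0.584, 3.18, 3.48 and 0.884 CPM in restricted larvae (fitted log2 difference -3.35 ± 0.622 SE without FF1, edgeR adjusted p = 0.00767). FF1 was the lowest restricted larva in the first 2 of these and W1 in the third. The groups did not overlap in any of the 3.

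The 8 field larvae entered these calls through the filter on low counts and the estimate of spread, and not through the difference itself. They too lay mostly on the ad libitum side. Their median position on the same scale was 0.625 to 1.15 for the higher and 0.566 to 1.11 for the lower transcripts. The lowest of these values was that of worker-reared larva 4HW11L2 in both sets, and the other 7 field larvae lay at 0.812 or above. For the higher transcripts, the share nearer to the ad libitum mean was 67% in 4HW11L2 and 78.4% to 97.2% in the other field larvae, and for the lower transcripts 58.5% and 77.5% to 95.5%. In 2049 of the 3016 calls (67.9%), the levels of W1, M1 and L1 lay outside the range of all other 13 larvae of the series, which was so for 3582 of the 36337 transcripts tested (9.86%). Outside the range of the other 5 laboratory larvae the shares were 93.7% and 23.8%. The calls were chosen for a difference of W1, M1 and L1 from the ad libitum larvae, so nothing is read from their excess over all transcripts. PmetTSAr1.1-002566 had 203 to 328 CPM in the field larvae and PmetTSAr1.1-000577 had 126 to 257 CPM, so in both transcripts W1, M1 and L1 stood apart from all 13 other larvae. The year, the place and the source population all differ between field and laboratory, and their parts cannot be told apart.

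**Figure D5:**
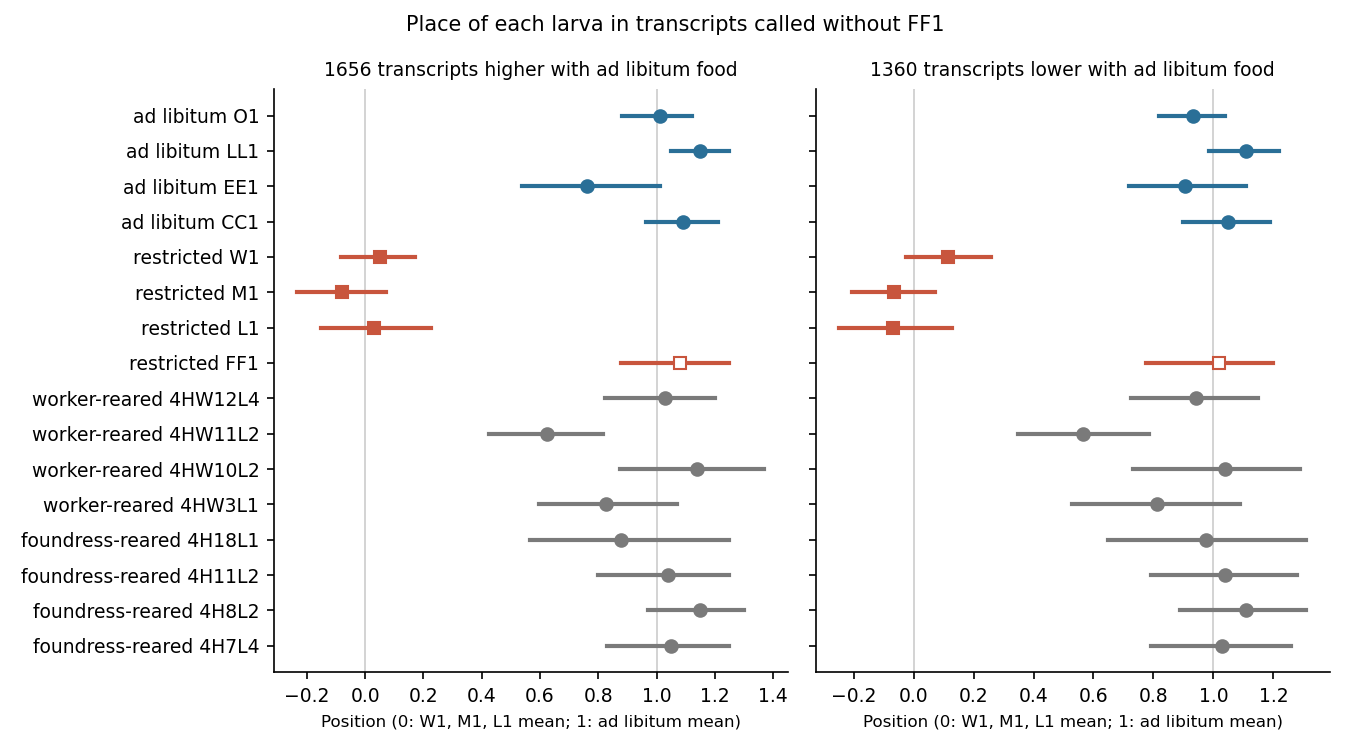
Place of each of the 16 larvae in the 1656 transcripts called higher (left) and the 1360 called lower (right) with ad libitum food in the fit without FF1, on a scale from 0 (mean log2 CPM of W1, M1 and L1) to 1 (ad libitum mean); points are medians over transcripts and bars run over the middle 50%. The ad libitum larvae and W1, M1 and L1 set the scale; FF1 (open square) has medians of 1.08 and 1.02, and the field larvae (grey) have medians of 0.566 to 1.15.

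The calls without FF1 were commoner among abundant transcripts. Among transcripts in the highest quartile of mean CPM (13.3 CPM and above), 8.62% were called higher and 4.84% lower with ad libitum food. In the lowest quartile (up to 0.604 CPM) these shares were 1.28% and 2.15%. The fitted differences ran the other way, with a median of 1.73-fold for the higher calls of the highest quartile and 4.01-fold for those of the lowest. Low counts have the larger error, and the part of abundance in these shares was not tested. Of the 1539 higher calls whose next identifier was also tested, the next one was called higher in 184 (12%, against 4.46% of all transcripts), and for the 1204 lower calls in 129 (10.7%, against 3.66%). Identifier numbers follow abundance (Spearman -0.87 with the mean count), and neighbours may share reads, so the calls are not a count of genes.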

How the data were processed

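Per the labels' protocols, each library came from the total RNA of 1 frozen larval head (RNeasy extraction, Illumina TruSeq preparation). The authors' deposited table holds raw counts, in whole numbers, of 74517 transcripts of an assembly in each of 16 larvae. The submitters' processing notes list Bowtie2 and eXpress, with no version. For strand handling, filters, the source of the assembly and fragments shared by transcripts, nothing is given in the sources used here, and shared fragments may let related transcripts repeat a change. Columns were matched to larvae by their codes (1 title writes O1 as 01), and replicate numbers follow the order of the records. Chi-square per degree of freedom was 43.4 or above in the 12 pairs of laboratory libraries within a group and 40.4 or above in the 16 pairs between groups (CC1 with FF1 the closest), so no 2 agreed within sampling noise.

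Transcripts were filtered with filterByExpr by group, which left 36337 (48.8%) holding 99.74% of the counts. One edgeR 4.0.16 model (R 4.3.3; TMM factors, robust quasi-likelihood F test, Benjamini-Hochberg adjustment, threshold 0.05) had a mean for each of the 4 groups over all 16 libraries, with 12 residual degrees of freedom. The fit without FF1 was filtered anew and had 11. The SE of a fitted log2 difference is its absolute value over the square root of F. log2 CPM used a prior count of 2. Library measures were compared by exact permutation tests over 70 assignments. The scripts were tested on simulated data. limma 3.58.1, DESeq2 1.42.0 and sva 3.50.0 gave alternatives.

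Named transcripts are the 4 per direction of smallest p without overlap (all 8 larvae), the 3 per direction of largest fold at 1 CPM or more and the 3 of smallest p at 20 CPM or more (without FF1), the 4 most abundant, and the 3 per direction of smallest p where FF1 lay on the restricted side. A last part of the rule, transcripts at 0 in a whole group, found none. The comparison, the lists and the omission of FF1 were chosen with earlier results of these data known, and the set of W1, M1 and L1 against 13 larvae after these results were seen.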

Additional observations from a re-analysis of the deposited data

Results flagged for a closer look

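Of 68 groups of 4 values examined, 10 had 1 larva well apart from the rest. Among independent groups not chosen by their values, about 1 in 20 would by chance, which is 3.4. The groups examined include transcripts named by their values in the same larvae, and pairs of transcripts with nearly the same pattern. The 3.4 therefore does not apply to them, and nothing is read from 10 against 3.4. In restricted larvae, 6 of the 10 were values of FF1. PmetTSAr1.1-003933 measured 45.6 CPM in FF1 against 0.0365 to 0.149 CPM in W1, M1 and L1, PmetTSAr1.1-015204 measured 100 against 0.119 to 0.402 CPM, and PmetTSAr1.1-007042 measured 8.57 against 0 to 0.0739 CPM. PmetTSAr1.1-002566 measured 263 CPM in FF1 against 85 to 86 CPM, and PmetTSAr1.1-002083 measured 80.9 against 17.7 to 22.8 CPM. These 5 transcripts were named in the fit without FF1, which favours a narrow range in the other 3. FF1 also had 62026 detected transcripts against 57586 to 58253.

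In ad libitum larvae, PmetTSAr1.1-000005 measured 54500 CPM in EE1 and 5130 to 13300 CPM in the others. PmetTSAr1.1-010151 measured 0.253 CPM in EE1 and 0 to 0.033 CPM in the others, levels near 0 in all of these larvae. PmetTSAr1.1-009293 measured 2.28 CPM in EE1 and 2.94 to 3.04 CPM in the others. O1 measured 12.1 CPM of PmetTSAr1.1-025202 against 14.8 to 15 CPM in LL1, EE1 and CC1. In PmetTSAr1.1-009293 and PmetTSAr1.1-025202 the other larvae lay close together, so the flag marks a small difference.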

How the results depend on the processing

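With all 8 larvae the 0 calls became 466 with DESeq2, 10 with 1 surrogate variable in the laboratory libraries alone (5516 at an unadjusted p under 0.05), and 10341 with limma voom and sample quality weights; the cause was not tested. Omission of single libraries, field libraries included, gave 0 to 3016 calls, with 3016 without FF1 and 0 without any other. Without FF1 the 3016 calls became 4927 with DESeq2 and 1987 with no filter on counts, and a second omission gave from 818 (also without M1) to 4527 calls (also without EE1). The calls were 1061 also without LL1, 1385 also without CC1, 1606 also without O1 and 1688 also without W1. Fits of the 7 laboratory libraries alone called 3591, 2319 of them among the 3016. Non-overlapping transcripts numbered 2298 to 9419 with a larva left out, above 1.5 times the 1921 without EE1 (4028), L1 (3240) and FF1.

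Among the fitted log2 differences of abundant transcripts, PmetTSAr1.1-000002 turned to -0.41 with quality weights and -0.27 without EE1. PmetTSAr1.1-000005 turned to -0.37 and -0.23. With single libraries left out, these 2 ranged up to 1.78 and 1.83. PmetTSAr1.1-014849 turned to -0.71 with limma voom, -3.17 with quality weights, and -0.97, -0.08 and -0.29 without EE1, L1 and FF1, and reached 0.95 with single libraries left out and 2.32 with 1 surrogate variable. The difference of library totals (ad libitum minus restricted) was -626072 counts and turned to 19249 without FF1 (exact permutation p = 1). Over the named transcripts and library measures, 491 of 547 alternative values kept their direction and side of the threshold. That count is no measure of robustness. It includes omissions of field libraries, which left the fitted differences almost unchanged, and transcripts that were not called and stayed so. The 24 values that passed the threshold anew were of the 8 transcripts named with all 8 larvae, each with DESeq2, with quality weights and without FF1. No paired analysis was possible because the labels name neither the nest of a larva nor pairs of larvae across the groups. Each laboratory library held at least 29048017 counts, and the fits rest on 4 larvae a group or fewer.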
